A study of Mus musculus with 11 samples.

Results

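The Ifitm genes encode interferon-induced transmembrane proteins, and 4 of them, Ifitm1, Ifitm2, Ifitm3 and Ifitm6, were followed here at the level of messenger RNA in T cells of the inflamed mouse colon. Every probe of an Illumina mouse bead array whose platform annotation named 1 of these genes was taken, which gave 4 of 19057 named genes and 8 of the 45281 probes: 5 for Ifitm1 and 1 each for Ifitm2, Ifitm3 and Ifitm6. The family was chosen by these measured values, since Ifitm1 was higher in knockout cells on several probes, so its differences between genotypes are given as a description, without a test.

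The 5 Il23r KO samples were T cells lacking Il23r, the gene for the specific chain of the IL-23 receptor, and the 6 WT samples were T cells with the intact gene, all of the C57BL/6 strain. Naive CD4 T cells of both genotypes were injected together into Rag1-/- mice, which lack mature T and B cells of their own, and colitis followed. Once the recipients were clinically ill, TCRβ+CD4+ cells were sorted from the colon lamina propria, the connective tissue under the epithelium, and a congenic marker told the genotypes apart. Both genotypes were thus taken from inflamed Rag1-/- recipients. The labels do not say how many recipients stand behind the samples of a genotype, so the spread between samples may be technical.

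Ifitm proteins are small membrane proteins that restrict the entry of enveloped viruses by acting on the membranes through which these viruses fuse. Ifitm3 sits mainly in endosomes and lysosomes, while human IFITM1 is found largely at the cell surface, where it was first described on leukocytes as part of a complex with the tetraspanin CD81. Type I and type II interferons induce the family through response elements bound by interferon regulatory factors and STAT proteins, and T cells also hold these transcripts at rest.

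The genes lie in a cluster on chromosome 7 (coordinates of assembly GRCm38.p6). Ifitm2 spans chr7:140954837-140959686, Ifitm1 chr7:140967429-140969827, Ifitm3 chr7:141009590-141010744 and Ifitm6 chr7:141015812-141016892. The RefSeq promoter windows, from 250 bases before to 50 bases after an annotated start, are shown for the 3 genes that were above background. Capitals mark matches to GAAA followed by any 2 bases and GAAA again, the core of the interferon-stimulated response element, and to TTCNNNGAA, the gamma-activated site bound by STAT proteins, each searched on both strands. The windows are chr7:140967826-140968125 on the plus strand for Ifitm1, chr7:140955912-140956211 on the minus strand for Ifitm2 and chr7:141010695-141010994 on the minus strand for Ifitm3.
Ifitm1: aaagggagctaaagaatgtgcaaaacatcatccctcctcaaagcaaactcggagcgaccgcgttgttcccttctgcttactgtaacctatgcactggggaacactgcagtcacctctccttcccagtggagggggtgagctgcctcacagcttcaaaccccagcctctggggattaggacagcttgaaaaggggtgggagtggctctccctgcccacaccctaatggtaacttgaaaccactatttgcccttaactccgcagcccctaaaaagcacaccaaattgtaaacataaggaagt
Ifitm2: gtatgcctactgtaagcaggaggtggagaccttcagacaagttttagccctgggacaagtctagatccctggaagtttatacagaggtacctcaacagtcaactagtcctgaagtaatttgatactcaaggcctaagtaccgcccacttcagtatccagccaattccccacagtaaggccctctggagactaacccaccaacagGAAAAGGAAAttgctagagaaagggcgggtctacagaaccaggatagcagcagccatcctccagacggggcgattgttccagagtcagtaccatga
Ifitm3: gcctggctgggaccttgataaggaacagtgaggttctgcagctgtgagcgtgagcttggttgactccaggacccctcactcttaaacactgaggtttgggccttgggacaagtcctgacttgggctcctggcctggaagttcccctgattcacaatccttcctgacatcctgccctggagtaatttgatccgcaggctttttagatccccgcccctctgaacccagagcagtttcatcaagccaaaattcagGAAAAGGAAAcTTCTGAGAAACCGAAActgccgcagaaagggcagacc

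Ifitm3 held 2 matches to the response element core, at bases 3 to 12 and 20 to 29 after the start, and 1 match to the gamma-activated site at bases 14 to 22, which overlaps the second of them. Ifitm2 held 1 match to the response element core, at bases -46 to -37, with the same letters (GAAAAGGAAA) as the first match of Ifitm3. The Ifitm1 window held neither motif, which says only that these letters are not in this window. RefSeq lists further Ifitm1 transcripts, and 1 start per gene was used. The Ifitm1 and Ifitm2 windows lie wholly inside the gene spans given above, so the upstream ends of these spans were not searched. The Ifitm3 and Ifitm6 windows cover the upstream ends of theirs. The windows thus sit at unlike positions, and no difference between promoters is read from their matches. The Ifitm6 window held 1 gamma-activated site match at bases -10 to -2. Among 32851 promoter windows of this length, 3.44% held the response element core and 8.3% the gamma-activated site.

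The arrays were of similar quality. Median raw intensity ran from 117.5 to 176.7 on the Il23r KO arrays and from 107.6 to 165.3 on the WT arrays, with 17576 to 18159 and 17309 to 18440 probes above background (detection p under 0.05). Precision is limited by how many arrays there were. The Il23r probe was above background on 0 of the 11 arrays and gives no check of the genotype labels. T cell genes such as Cd3e, Cd3g and Thy1 were above background on all arrays. So were genes of other cells, among them Lyz2, Cd74 and S100a8 of myeloid cells and Krt8 and Cdh1 of epithelium, while Epcam, Krt19, Vil1 and Itgam were above background on none.

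The 5 Ifitm1 probes were all higher on average in Il23r KO cells than in WT cells, by 1.24-fold to 2.00-fold, while the single probes of Ifitm2 and Ifitm3 were 1.22-fold and 1.03-fold higher and the Ifitm6 probe was at background. Values below are log2 intensities after background correction and quantile normalization, which gives all arrays the same distribution, and a difference is Il23r KO minus WT on that log2 scale. A probe was tested if it was above background on at least 5 arrays, and 7 of the 8 Ifitm probes were. A probe counted as called where its adjusted p from limma (Benjamini-Hochberg) was under 0.05, which held for 320 of 18003 probes, or 1.78%, with 1.17% higher in Il23r KO cells and 0.611% lower. Of the 7 Ifitm probes 3 were called as higher, all of Ifitm1. That count follows from the way the family was picked.

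In the main fit Ifitm1, known from human cells as a surface protein of leukocytes, differed most on probe ILMN_2814484. Its log2 values were 9.09, 9.48, 8.97, 9.31 and 8.65 on the 5 Il23r KO arrays, against 7.78, 8.09 and 8.43 as the lowest, median and highest of the 6 WT arrays. It was the single Ifitm probe on which every Il23r KO array lay above every WT array, as did 1.92% of all tested probes, while 1.29% lay wholly below. The difference was 1.00 ± 0.16 (SE), or 2.00-fold, with means of 9.10 ± 0.32 (SD, n = 5) in Il23r KO and 8.10 ± 0.26 (SD, n = 6) in WT cells.

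Probe ILMN_1214071 of Ifitm1 read 12.77, 12.69, 12.48, 12.54 and 11.99 on the Il23r KO arrays, against 11.23, 11.43 and 11.99 as the lowest, median and highest WT values. The genotypes met only at the edge: Il23r KO replicate 5 was just below WT replicate 1, and the other 4 Il23r KO arrays were above all WT arrays. The difference was 0.94 ± 0.17 (SE), or 1.92-fold. Raw intensities of this probe ran from 3607.6 to 9259.8 on Il23r KO arrays and from 1841.3 to 4992.7 on WT arrays.

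Probe ILMN_1245129 of Ifitm1 read 8.82, 8.54, 8.34, 8.41 and 8.16 in Il23r KO cells, against 7.23, 7.48 and 8.22 as the lowest, median and highest of WT. Again 4 of the 5 Il23r KO arrays exceeded all WT arrays, and the difference was 0.88 ± 0.17 (SE), or 1.84-fold. Probe ILMN_2640765 read 8.01, 7.53, 7.60, 7.89 and 7.46 in Il23r KO cells, against 6.48, 6.97 and 7.48 in WT, with a difference of 0.68 ± 0.16 (SE). It was not called in the main fit, although 4 of its 5 Il23r KO arrays were above the highest WT array. Some of the alternative settings given at the end did call it. The highest WT array was replicate 1 for both of these probes.

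The brightest Ifitm1 probe, ILMN_1217180, stood apart from the other 4. It read 13.23, 12.96, 13.03, 13.08 and 12.80 in Il23r KO cells, against 12.35, 12.71 and 13.01 as the lowest, median and highest of WT, so that 3 of the 5 Il23r KO arrays were above the highest WT array. Its difference was 0.32 ± 0.12 (SE), or 1.24-fold, and it was not called. A summary that lets the brightest probe stand for a gene would therefore report Ifitm1 as not called. The platform annotation gives all 5 probes the same Ifitm1 transcript accession. Probe sequences were not used here, and how far probes of this gene family also bind transcripts of its other members was not tested.

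**Figure D1:**
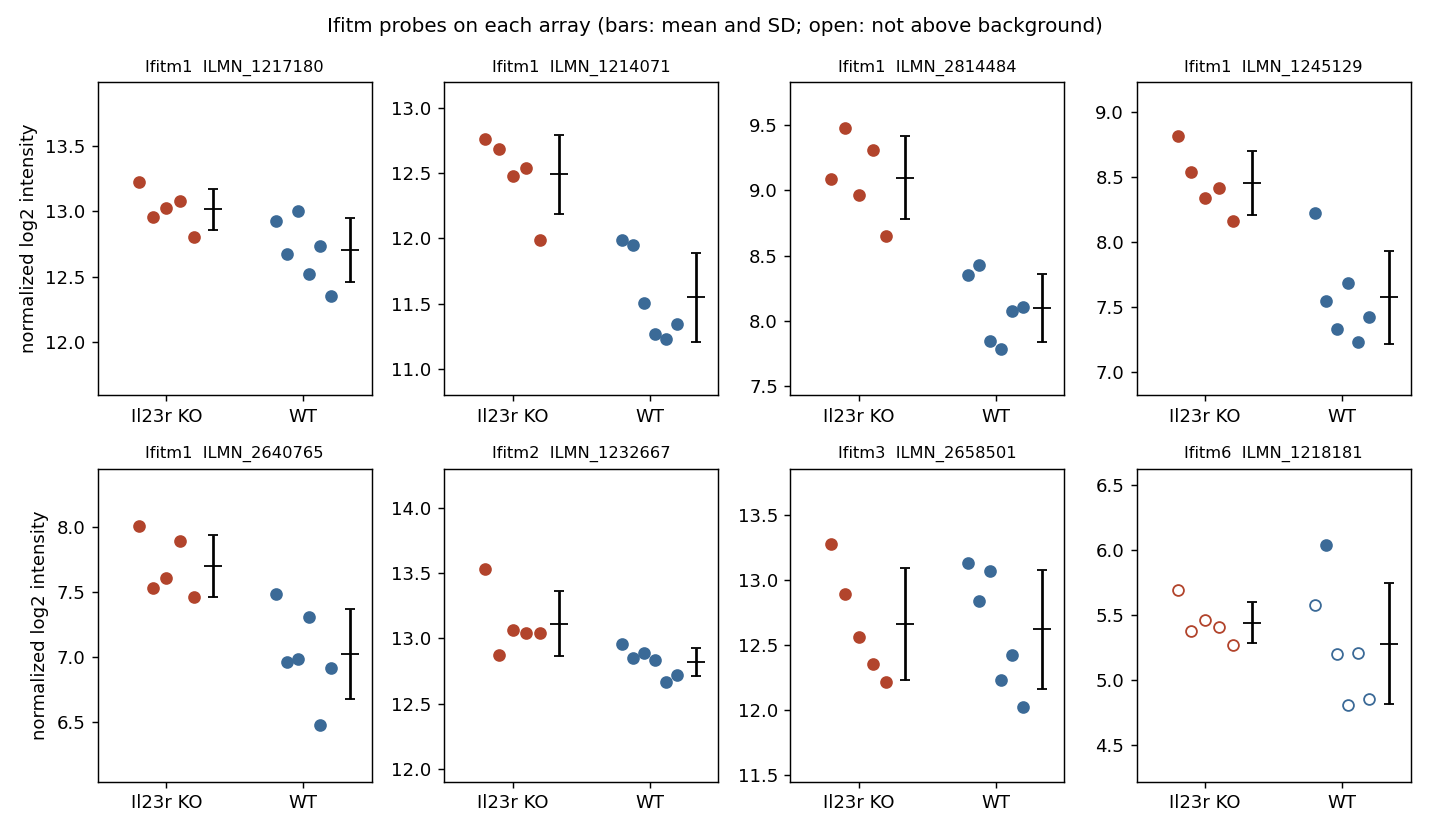
Normalized log2 intensity of each Ifitm probe on each array, with Il23r KO arrays left and WT arrays right, each panel covering the same log2 range; bars show mean and SD (n = 5 and 6), and open points are not above background. Probe ILMN_2814484 separates the genotypes fully, ILMN_1217180 of Ifitm1 and the Ifitm2 and Ifitm3 probes overlap, and the Ifitm6 probe is above background on 1 WT array.

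Ifitm2, an endosomal relative of Ifitm3, was bright in both genotypes. Its probe ILMN_1232667 read 13.54, 12.88, 13.07, 13.04 and 13.04 in Il23r KO cells, against 12.66, 12.84 and 12.96 as the lowest, median and highest of WT. In Il23r KO cells 4 of the 5 arrays were above the highest WT array, with replicate 1 well above the rest. The difference was 0.29 ± 0.11 (SE), or 1.22-fold, and fell to 0.19 without Il23r KO replicate 1. The probe was not called.

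Ifitm3, the family's best-studied antiviral member, differed by less than its spread. Its probe ILMN_2658501 read 13.28, 12.89, 12.56, 12.35 and 12.21 in Il23r KO cells, against 12.02, 12.63 and 13.13 as the lowest, median and highest of WT. The groups overlapped almost wholly, with means of 12.66 ± 0.43 (SD, n = 5) in Il23r KO and 12.62 ± 0.46 (SD, n = 6) in WT cells. The difference was 0.04 ± 0.23 (SE), and its sign turned with the setting: it was -0.11 without Il23r KO replicate 1 and -0.10 with array brightness as a covariate.

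Ifitm6 was at background. Its probe ILMN_1218181 was above background on 0 of the 5 Il23r KO arrays and on 1 of the 6 WT arrays, replicate 2, with raw intensities of 117.7 to 198.6 in Il23r KO and 90.2 to 185.8 in WT cells. No fold is given for it. Of the other relatives on the array, Ifitm5, a bone protein, was above background on 1 Il23r KO array and 2 WT arrays and Ifitm10 on none.

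**Figure D2:**
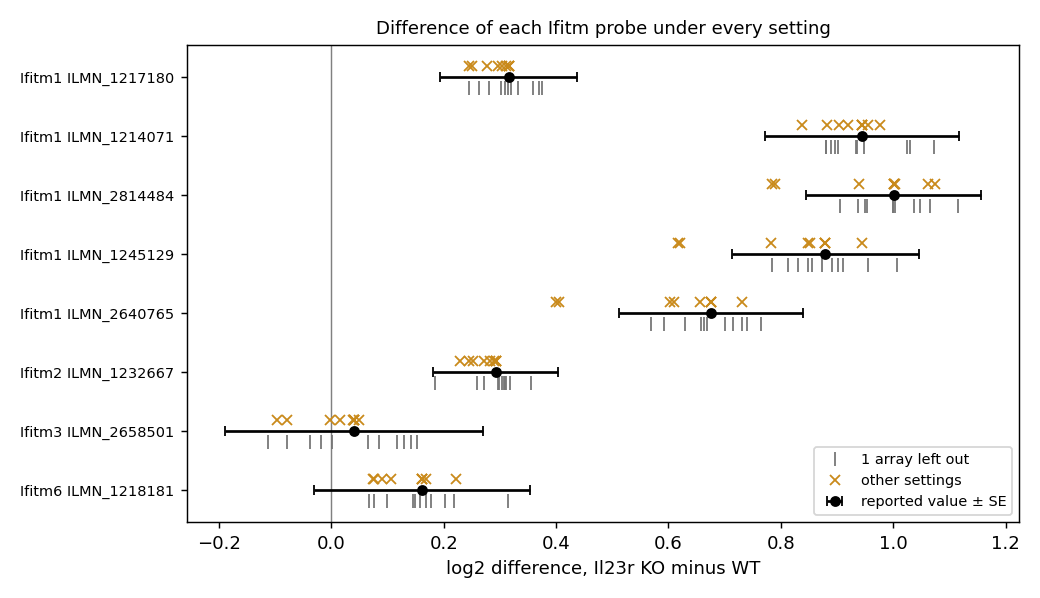
Log2 difference, Il23r KO minus WT, of each Ifitm probe: black points with bars are the reported value and its SE, crosses are the other settings and ticks the fits without 1 array. The 5 Ifitm1 probes and the Ifitm2 probe stay above 0 throughout, while the Ifitm3 probe lies on both sides of 0, from -0.11 to 0.15 in the fits without 1 array.

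Array-to-array variation within a genotype was then compared between members, with the genotype means removed so that the contrast used to pick the family plays no part. Among the 10 pairs of Ifitm1 probes the Pearson correlation of these deviations over 11 arrays ran from 0.15 to 0.84, with a median of 0.49. The brightest probe, ILMN_1217180, had r of 0.20 to 0.56 with the other Ifitm1 probes, 0.55 with Ifitm2 and 0.84 with Ifitm3. With Ifitm3, r was 0.78 for ILMN_1214071, 0.59 for ILMN_1245129, 0.39 for ILMN_2640765 and 0.38 for ILMN_2814484. With Ifitm2, r was 0.67 for ILMN_2640765, 0.59 for ILMN_1245129, 0.44 for ILMN_1214071 and -0.10 for ILMN_2814484. The likeness of Ifitm1 to both genes thus varied with the probe. Probes ILMN_1245129 and ILMN_2640765, with r = 0.84, were the most alike of the Ifitm1 probes.

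Taking the brightest probe for Ifitm1, 18 relations were computed in all: the 3 pairs of genes, and each gene with array brightness (log2 of the median raw intensity) and with the mean level of the T cell, myeloid, type I interferon and interferon gamma lists. None passed a Benjamini-Hochberg adjusted permutation p under 0.05 (100000 permutations within genotype, two-sided), so no relation is claimed from 11 arrays. Ifitm1 with Ifitm3 came closest, with Pearson r = 0.84 (permutation p = 0.00295, adjusted p = 0.0531) and Spearman rho = 0.78 (permutation p = 0.0114, adjusted p = 0.139). Without the arrays farthest from the median, Il23r KO 1 and WT 1, its r was 0.77. Ifitm2 with Ifitm3 had r = 0.61 (permutation p = 0.042, adjusted p = 0.206) and rho = 0.61 (permutation p = 0.0611, adjusted p = 0.206), and without the same arrays r was 0.19. That r was 0.39 without Il23r KO 1 alone, 0.57 without WT 1 alone and 0.77 over the 6 WT arrays, so it depended on the arrays taken. Ifitm1 with Ifitm2 had r = 0.55 (permutation p = 0.0458, adjusted p = 0.206) and rho = 0.59 (permutation p = 0.0687, adjusted p = 0.206), and r was 0.56 without Il23r KO 1 and Il23r KO 2.

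Ifitm3 and array brightness had r = 0.81 (permutation p = 0.00846, adjusted p = 0.0761) and rho = 0.75 (permutation p = 0.0168, adjusted p = 0.139), and r = 0.66 without Il23r KO 1 and WT 1. With brightness as a covariate the Ifitm3 difference between genotypes was -0.10 ± 0.15 (SE), against 0.04 ± 0.23 (SE) without it. Same-numbered arrays of Il23r KO and WT were alike in brightness for replicates 1, 2 and 5, with deviations of 0.33 and 0.33, 0.22 and 0.25, and -0.26 and -0.29. They were less alike for replicate 3, at -0.18 and -0.04, and replicate 4, at -0.11 and -0.0004. The permutations treat all 11 arrays as independent. With the myeloid list Ifitm3 had r = 0.57 (permutation p = 0.0811, adjusted p = 0.243) and rho = 0.71 (permutation p = 0.0267, adjusted p = 0.139), and r = 0.77 without WT 2 and WT 4. Against type I targets Ifitm1, Ifitm2 and Ifitm3 had r of -0.36, -0.40 and -0.49 and rho of -0.25, -0.38 and -0.45. Against interferon gamma targets they had r of -0.26, -0.31 and -0.14 and rho of -0.18, -0.32 and -0.16. None of these 6 relations with interferon targets passed, with adjusted permutation p of 0.328 to 0.751 for r.

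**Figure D3:**
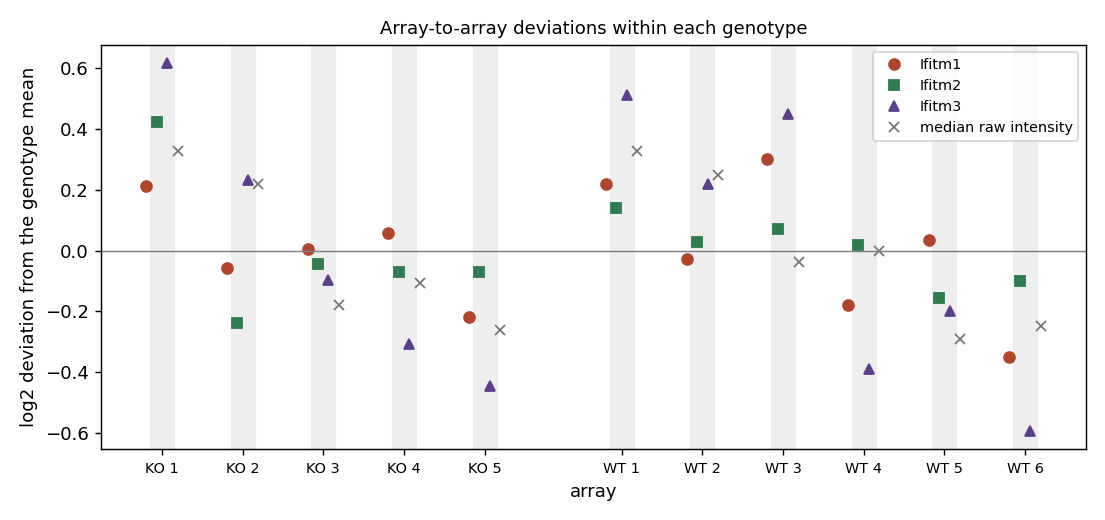
Deviation of Ifitm1 (probe ILMN_1217180), Ifitm2 and Ifitm3 from their genotype mean on each array, with the deviation of the array's log2 median raw intensity, Il23r KO arrays left and WT arrays right. Ifitm3 spans the widest range, from -0.59 on WT replicate 6 to 0.62 on Il23r KO replicate 1, and lies above 0 on replicates 1 and 2 of both genotypes, whose brightness was above the genotype mean, and on WT replicate 3, whose brightness was not.

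Likeness was sought for the brightest probe of each gene, so for Ifitm1 it rests on ILMN_1217180 alone. That probe had r of 0.20 to 0.56 with the other Ifitm1 probes. Among the named probes that passed the detection filter, the genes whose deviations were most like those of Ifitm1 were Polr3a, a subunit of RNA polymerase III, Ndufs3, a subunit of respiratory complex I, Dcaf17, the kinase gene Vrk2 and the RNA-binding protein gene Rbms1, with r of 0.92 to 0.96 over 11 arrays. For Ifitm2 they were Ddost, a subunit of the oligosaccharyltransferase, the ubiquitin protease gene Usp12, Copz1 of the COPI vesicle coat, Dhrsx and Yif1a (r of 0.91 to 0.95). For Ifitm3 they were Tia1, an RNA-binding protein of stress granules, Nme7, Lrrc41, Mfsd11 and 1500009L16Rik (r of 0.95 to 0.98). These were the closest of 14905 to 14909 candidate probes and are given as a description. None of the 15 was an interferon-induced gene of the lists used here, and none was called between genotypes by limma (smallest adjusted p = 0.191).

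The interferon pathway around the family was followed by ligands, receptors and targets. Over the 9139 genes with a tested probe, each taken by its brightest one, 1.94% were called, 1.27% as higher and 0.667% as lower in Il23r KO cells, 1645 of the 9139 had an unadjusted p under 0.05, the median difference was 0.01 and 51.1% of differences were positive. Of the 63 measured genes of the 4 interferon lists together, 1 was called as higher and 0 as lower, 17 had an unadjusted p under 0.05, 48 were positive, and their median difference was 0.11. The share called is near that over all genes and is no result about these lists. That call, of Il10rb, was lost in 9 of the 11 fits without 1 array, with an adjusted p of up to 0.123. In other settings 0 to 5 of the interferon genes were called.

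Among interferon genes themselves, 2 of 10 were measured. Ifng, the type II interferon made by T cells, was at 0.29 ± 0.10 (SE, limma adjusted p = 0.178) and Ifna1 at 0.16 ± 0.11 (adjusted p = 0.486). Neither was called, and 1 of them had an unadjusted p under 0.05. Of the receptor and signalling genes 14 of 17 were measured, and Il10rb, a chain shared by the receptors for IL-10, IL-22 and interferon lambda, rose by 0.37 ± 0.09 (SE, adjusted p = 0.0475), while 0 fell. The median was 0.06. The interferon gamma receptor chains Ifngr1 and Ifngr2 were at -0.01 and 0.01 and the type I receptor chain Ifnar2 at 0.15 (adjusted p = 0.95, 0.979 and 0.636), while the Ifnar1 probe was above background on no array.

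Of 40 type I interferon targets 29 were measured, 22 had positive differences, and the median was 0.15. None was called by limma, and 8 had an unadjusted p under 0.05. Eif2ak2, the kinase that halts translation on double-stranded RNA, was at 0.31 ± 0.08 (SE, adjusted p = 0.0905) and Trim30a at 0.31 ± 0.09 (SE, adjusted p = 0.103). Of 24 interferon gamma targets 18 were measured, 14 had positive differences, and the median was 0.09. None was called, and 6 had an unadjusted p under 0.05. Irf1, a transcription factor induced by interferon gamma, was at 0.36 ± 0.09 (SE, adjusted p = 0.0662) and Gbp2, a guanylate-binding protein, at 0.47 ± 0.12 (SE, adjusted p = 0.0708). The differences in the 4 interferon lists ran from -0.39 to 0.71.

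**Figure D4:**
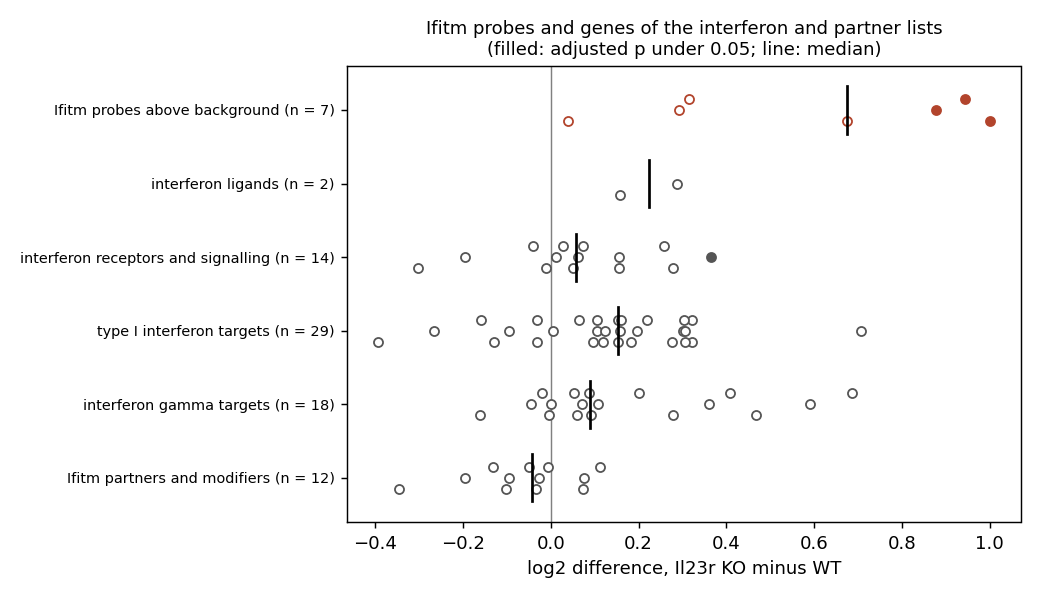
Log2 differences, Il23r KO minus WT, of the 7 Ifitm probes above background and of the measured genes of each interferon or partner list; filled points have an adjusted p under 0.05 and lines are medians. The Ifitm1 probes reach 1.00, list medians lie between -0.04 and 0.22, and Il10rb is the single filled point outside the family.

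Genes whose proteins are known to bind or modify Ifitm proteins, mostly from work on human IFITM3, were also followed. Of 14 such genes 12 were measured, 3 had positive differences, and the median was -0.04. By limma 0 of the 12 were called, and 0 had an unadjusted p under 0.05. Over all genes 1.94% were called, and 1645 of 9139 had an unadjusted p under 0.05. With that share called, 0 calls among 12 genes is no result about this list. Cd9, a tetraspanin, was at -0.35 ± 0.17 (SE, adjusted p = 0.313) and Vapa, an anchor of the endoplasmic reticulum that binds IFITM3, at -0.13 ± 0.11 (SE, adjusted p = 0.552).

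Genes next to the cluster were examined within 200 kb of its outer members, a window with 39 annotated genes. Of the genes other than Ifitm1, Ifitm2, Ifitm3 and Ifitm6, 13 were measured and 7 had positive differences. By limma 0 of the 13 were called and 5 had an unadjusted p under 0.05. Over all genes 1.94% were called, so 0 calls among 13 genes is no result about the neighbours. An unadjusted p under 0.05 was held by 1645 of all 9139 genes. That share was lower than among the neighbours, and the gap was not tested. On the Ifitm2 side, Pgghg was at -0.34 ± 0.18 (SE, adjusted p = 0.346), Psmd13, a proteasome subunit, at -0.02, the deacetylase gene Sirt3 at -0.04, Bet1l at -0.21, Urah at 0.06, Zfp941 at 0.41 and Syce1, a protein of the meiotic synaptonemal complex, at 1.10 ± 0.31 (SE, adjusted p = 0.102). On the Ifitm6 side, B4galnt4 was at 0.36 ± 0.11 (SE, adjusted p = 0.129), Pkp3 at 0.11, Sigirr, an inhibitor of IL-1 receptor signalling, at -0.08, Ptdss2 at 0.06, Lmntd2 at 0.59 ± 0.22 (SE, adjusted p = 0.193) and Rassf7 at -0.14. None of these neighbours lay between Ifitm2 and Ifitm6.

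**Figure D5:**
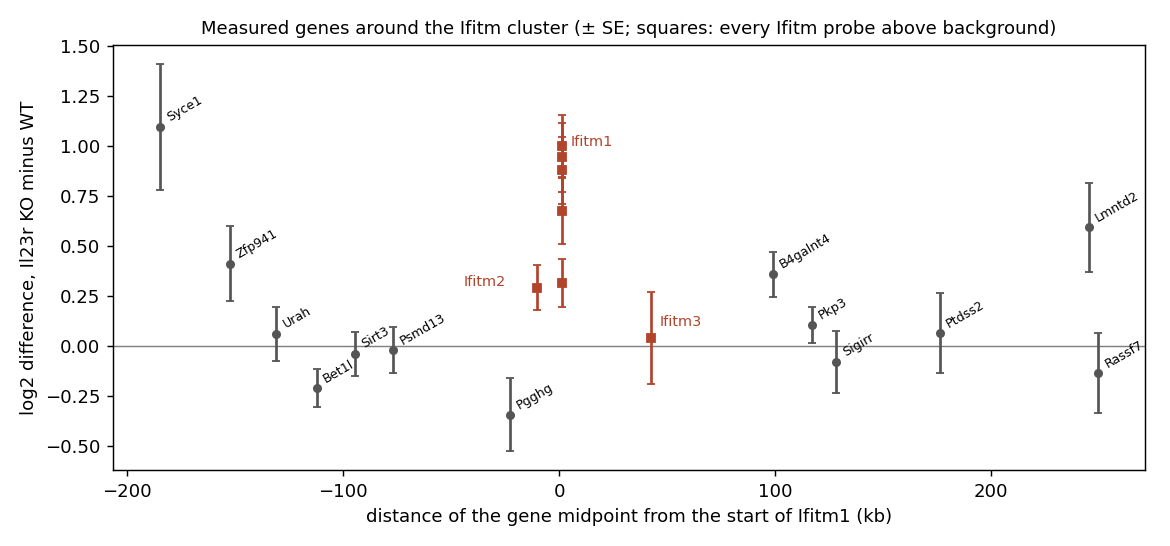
Log2 difference, Il23r KO minus WT, with its SE, of each measured gene against the distance of its midpoint from the start of Ifitm1 in kb; squares are the Ifitm probes above background and circles the neighbours by their brightest tested probe. Ifitm1 spans 0.32 to 1.00 over its probes, and the neighbours span -0.34 to 1.10 with none called.

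Cells other than T cells also hold Ifitm transcripts, and fewer cells of a type cannot be told apart from less RNA per cell in these sorted pools. The myeloid list had 10 of 12 genes measured, 0 called by limma and 0 with an unadjusted p under 0.05, 8 with positive differences and a median of 0.26. The most abundant of the list were Lyz1 at 0.44, Cd74 at 0.23 and H2-Aa at 0.29, and Lyz2 was at 0.20. The calgranulin genes S100a8 and S100a9 went the other way, at -0.79 ± 0.43 (SE, adjusted p = 0.357) and -0.63 ± 0.38 (SE, adjusted p = 0.401), and had the widest differences of the list. Its summed normalized intensity ran from 5995 to 8450 on Il23r KO arrays and from 3657 to 12328 on WT arrays, so the genotypes overlapped, and its part in the Ifitm values was not tested between genotypes. The T cell list had 8 of 9 genes measured, 0 called and 2 with an unadjusted p under 0.05, with a median of -0.05. Those 2 were Cd247, a signalling chain of the T cell receptor, at -0.44 ± 0.15 (SE, adjusted p = 0.145) and Cd2 at -0.18 ± 0.07 (SE, adjusted p = 0.235). Cd4, used in the sort, was at -0.22 ± 0.11 (SE, adjusted p = 0.331), while Thy1, Cd3g and Cd3e were at -0.11, 0.05 and 0.08. The epithelial list had 3 of 6 genes measured, with Cdh1 at 0.82, Krt8 at -0.21 and Krt18 at -0.75 (adjusted p = 0.071, 0.66 and 0.133), and 2 had an unadjusted p under 0.05. The remaining lists had 0 genes called and 0 with an unadjusted p under 0.05. Of B cell genes 1 of 5 was measured, Cd79b at 0.06. Of stroma and vessel genes 2 of 7 were measured, Pecam1 at -0.13 and Dcn at -0.59. Col1a1, Col1a2 and Kdr were among those of that list not measured. Of CD8 and natural killer genes 2 of 4 were measured, Cd8b1 at -0.18 and Klrb1c at -0.19, while Cd8a and Ncr1 were not.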

How the data were processed

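Per the labels, biotin-labelled amplified RNA of 11 sorted T cell samples was measured on Illumina mouse bead arrays, 1 sample each. The authors deposited linear probe intensities that show no background subtraction or normalization. GenomeStudio 1.6.0 is named in the submitters' processing notes. The authors also deposited a detection score, headed as a p-value in the file headers. It rose with intensity on every array (Spearman correlation of at least 0.984) and was taken as 1 minus a detection p. A value table from the authors holds log2 values, which matched the log2 intensity after subtraction of each array's 75th percentile. It gave probe names to the bead numbers of the intensity table (largest difference 0.000339). Of 45281 probes, 34885 had 1 gene symbol, 18 several and 10378 none.

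Background and scale were set by neqc (limma 3.58.1, R 4.3.3; normexp background from the detection p, offset 16, quantile normalization); the offset shrinks differences of dim probes. Probes with detection p under 0.05 on at least 5 arrays (18003 probes, 9139 genes) were fitted with lmFit and eBayes, genotype as the single term, two-sided, with Benjamini-Hochberg adjustment over all of them. Ifitm6, which failed this filter, was taken from the fit of all probes. In simulated data with the spread of these arrays over 18003 probes, 56%, 94%, 100% and 98% of probes changed by 0.5, 1, 1.5 and 2 log2 units were recovered, and 6 of 180 calls were false.

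The family and all gene lists were chosen with earlier results of these data known. The rule for named genes took every Ifitm probe, the called genes of each interferon or partner list or else the 2 with the smallest p, all measured neighbours, the 3 brightest genes of each marker list of other cells and the 5 genes most like each bright Ifitm gene. The interferon receptor chains, the T cell genes, S100a8 and S100a9 were added after their values were seen. Gene positions and promoters are from RefSeq, GRCm38.p6. No source used here names the slides. Alternatives were the replicate number as a block, other background, normalization, filter, variance and weighting choices, the authors' log2 values, another probe per gene, each array left out and, added after seeing the data, array brightness as a covariate.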

Additional observations from a re-analysis of the deposited data

How the results depend on the processing

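Every Ifitm difference moved by less than the spread between replicates in all 20 alternatives. That spread, the pooled SD within genotypes, is a wide limit, for example 0.18 for Ifitm2 and 0.45 for Ifitm3. The Ifitm3 difference changed sign within it. Probe ILMN_2640765, not called in the main fit, was called with the replicate block, without background correction and on the authors' log2 values. It was also called at detection p under 0.01, with a trended variance, with brightness as a covariate and without WT replicate 1. The Ifitm1 probes ILMN_2814484, ILMN_1214071, ILMN_1245129, ILMN_2640765 and ILMN_1217180 ran from 0.90 to 1.12, 0.88 to 1.07, 0.79 to 1.01, 0.57 to 0.77 and 0.25 to 0.37 with 1 array left out, Ifitm2 from 0.19 to 0.36 and Ifitm3 from -0.11 to 0.15. The dimmer Ifitm1 probes were lower on values that are not background-corrected. On the authors' log2 values ILMN_2814484, ILMN_1245129 and ILMN_2640765 were at 0.79, 0.62 and 0.40, against 1.00, 0.88 and 0.68 in the main fit. Without background correction these probes were at 0.78, 0.62 and 0.41. The brighter ILMN_1214071 was at 0.88 and 0.92 in these settings, above ILMN_2814484 in both. The 320 called probes became 159 to 513 without 1 array (lowest without WT replicate 5, highest without WT replicate 2), 210 without the detection filter, which adds dim probes to the adjustment, and 512 with array brightness as a covariate. With equal medians 77.4% of calls were higher, against 65.6%. The single call in the interferon lists became 0 to 1 without 1 array, 0 with the replicate block and without the detection filter, 2 on the authors' values, 3 with the probe of smallest p, 4 without background correction and with a trended variance, and 5 with array weights and with brightness as a covariate. With the replicate block 264 probes were called, Il10rb was not (adjusted p = 0.0724), and Ifitm3 was at -0.08 ± 0.11 (SE). Deviations of same-numbered arrays correlated with r of -0.01 to 0.26, above 0.1 in 3 of 5 pairs, and 2 of 5 Il23r KO and 3 of 5 WT arrays correlated best with their own number, which does not settle whether the numbers pair the samples; the main values use no block. With equal medians the within-genotype r of Ifitm1 with Ifitm2, Ifitm1 with Ifitm3 and Ifitm2 with Ifitm3 was 0.84, 0.96 and 0.85. Other causes were not tested.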
